A study of Bos grunniens and Bos grunniens x Bos taurus with 12 samples.

Results

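The genes described here are the kinases and phosphatases best known from spermatids, the haploid cells that become sperm. The list holds 9 gene symbols: the testis-specific serine kinases TSSK1B, TSSK2, TSSK3, TSSK4 and TSSK6, the calcium/calmodulin-dependent kinase CAMK4, the calcineurin subunits PPP3CC and PPP3R2, and PPP1CC, the gamma catalytic subunit of protein phosphatase 1. Members were found by an exact match of the symbol in the deposited gene tables, which hold 20965 genes, of which 13662 carry a symbol. Of the 9 symbols, 7 have a row, each with a single row, while TSSK2 and PPP3R2 have no row under their symbols and were not analysed here. No sequence of any member is shown.

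Spermatids stop dividing, pack their chromatin and build the flagellum and acrosome, and much of the protein they need is translated from stored mRNA. The TSSK kinases are made in spermatids after meiosis and act, with chaperone cofactors, in the shaping of the sperm head and tail. CAMK4 is activated by calcium-bound calmodulin and by an upstream CaMK kinase. Calcineurin is the calcium-activated phosphatase, built from a catalytic and a regulatory subunit. PPP3CC is the catalytic subunit that testis and sperm use, with PPP3R2 as its regulatory partner, whereas PPP3CA and PPP3CB are the forms of most other tissues. PPP1CC gives rise by splicing to a form enriched in testis and sperm, beside the widely made PPP1CA and PPP1CB.

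Ribosome footprints (RFs), the short mRNA pieces that translating ribosomes protect, were sequenced from whole testis of 12 animals in 4 groups of 3. The yak groups were 6 months old (Y6M, labelled juvenile), 18 months old (Y18M, puberty) and 4 years old (Y4Y, sexual maturity). The fourth group was cattle-yak of 4 years (CY, sexual maturity), which the study's methods give as the cross of a Jersey bull and a Gannan yak cow. No group carries a treatment or an engineered allele. The labels give castration as the way every testis was collected, whereas the methods name euthanasia for adult yak, so collection and group cannot be told apart in CY against Y4Y. The methods describe the Y4Y and CY libraries, whose reads, those of the hybrid included, were aligned to the yak genome, and the part of this in the CY values was not tested. For Y6M and Y18M the alignment is not given in the sources used here. A level is given in FPKM, RFs scaled by the length of the coding region and by the library's total, and is called the translation level below. From RFs of whole testis alone, fewer cells of a type and less RNA or translation per cell cannot be told apart. The study also compared RNA-seq of its adult yak and cattle-yak samples with the RFs, and that RNA-seq was not used here.

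The total count per library was 25816963 to 37167651 in Y6M, 21309151 to 24542362 in Y18M, 16304058 to 17862516 in Y4Y and 38437889 to 52616039 in CY. The Y18M library of replicate 2 stood apart from its group. Its correlation of log2(FPKM + 1) over genes was 0.974 to 0.975 with the Y4Y libraries and 0.876 to 0.899 with the other Y18M libraries. Y18M replicate 1 correlated at 0.976 to 0.983 with Y6M. In the other groups the libraries of a group correlated at 0.982 or more with each other. The label of replicate 2 was kept, and the members' edgeR fits of the yak steps and the shares are given with and without it. The DESeq2 and limma fits, the fit of all 12 libraries and the correlations were run only with it. Tests were edgeR's quasi-likelihood test on the expected counts, and a gene was called when its Benjamini-Hochberg adjusted p over all genes tested was under 0.05 and its log2 fold change was at least 1 in size.

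TSSK6 (ENSBGRG00000001976), a kinase linked to chromatin packing in spermatids, had the highest translation level of the TSSK genes in adult yak. Its FPKM was 165.18, 217.51 and 200.56 in the Y4Y libraries of replicates 1, 2 and 3. In CY it was 1.47, 2.31 and 1.86, in Y6M 0, 0.13 and 0.23, and in Y18M 0.94, 113.80 and 1.82. All Y4Y values lay above every other library, and Y18M replicate 2 was the only library outside Y4Y above 2.31. The CY values lay above all Y6M values, and Y18M replicate 3 lay inside their range. Behind these levels stood 2502 to 3306 counts per Y4Y library, 61 to 76 per CY library and 0 to 6 per Y6M library.

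TSSK1B (ENSBGRG00000019032), a kinase of the spermatid cytoplasm, followed the same order of groups at a lower level. Its FPKM was 61.22, 72.08 and 66.38 in Y4Y and 0.60, 0.47 and 1.06 in CY. It was 0, 0.05 and 0.09 in Y6M and 0.27, 32.33 and 0.29 in Y18M. The CY libraries held 20 to 45 counts of the gene and the Y6M libraries 0 to 3, so both low groups were measured on few reads, and their values did not overlap. TSSK2 is its close relative and neighbours it in the RefSeq gene table of the Bosgru_T2T1.0 assembly. How reads common to both genes were assigned was not tested, and the TSSK1B level is uncertain to that extent.

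TSSK4 (ENSBGRG00000017845), a kinase that phosphorylates the sperm tail protein ODF2, was the member closest to 0 in CY and Y6M. Its FPKM was 53.85, 63.05 and 45.58 in Y4Y, against 0.15, 0.10 and 0.03 in CY. The Y6M libraries held 0.04, 0 and 0 and the Y18M libraries 0.04, 24.87 and 0. In counts, the 3 Y4Y libraries held 815, 962 and 553, the CY libraries 8, 4 and 1, and the Y6M libraries 1, 0 and 0. Y4Y and Y18M replicate 2 thus held nearly all RFs of this gene, and CY and Y6M overlapped.

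TSSK3 (ENSBGRG00000012978), a kinase of the postmeiotic germ cells, was the TSSK gene with a level above 1 FPKM in every library. It stood at 47.89, 47.04 and 62.94 FPKM in Y4Y and at 5.50, 5.93 and 6.76 in CY. In Y6M it stood at 2.45, 2.34 and 1.71, and in Y18M at 2.75, 42.29 and 4.66. CY lay below Y4Y and above Y6M without overlap, and above Y18M replicates 1 and 3. The CY mean was 11.5% ± 1.22 (SD, n = 3) of the Y4Y mean, against 0.97% ± 0.22 for TSSK6, 1.07% ± 0.47 for TSSK1B and 0.17% ± 0.11 for TSSK4. The ratio of TSSK3 to TSSK6 in FPKM was 0.22 to 0.31 in the Y4Y libraries and 2.57 to 3.74 in the CY libraries. TSSK1B over TSSK6 was 0.33 to 0.37 in Y4Y and 0.20 to 0.57 in CY, so these ranges overlapped whereas those of TSSK3 over TSSK6 did not.

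A row without a symbol (ENSBGRG00000012461) is described in the tables as similar to testis-specific serine kinase 5 and is called TSSK5-like. It held 70, 38 and 111 counts in Y4Y, 1 in each CY library, 0 in each Y6M library, and 0, 74 and 0 in Y18M. The Y4Y level relative to the library totals was 182 times that of CY, with an exact 95% interval of 61.5 to 890 for counting error alone. Against Y6M, with 0 counts over the 3 libraries, it was at least 132-fold higher, taking 3 counts over the group as the floor.

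CAMK4 (ENSBGRG00000011434), the calcium/calmodulin-dependent kinase of spermatids and neurons, had a lower adult level and a shallower difference. Its FPKM was 18.74, 16.51 and 18.04 in Y4Y, 2.43, 2.46 and 2.78 in CY, 0.49, 0.95 and 1.24 in Y6M and 1.63, 13.67 and 5.39 in Y18M. CY thus lay between Y6M and Y4Y without touching either. Y18M replicate 3, at 5.39, was above all CY libraries, a position it held for no TSSK gene.

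PPP3CC (ENSBGRG00000010542), the testis form of the calcineurin catalytic subunit, was translated in every library. Its FPKM was 28.60, 24.22 and 42.36 in Y4Y and 9.92, 8.89 and 9.77 in CY. In Y6M it was 12.68, 12.98 and 12.56, and in Y18M 14.84, 29.59 and 12.69. CY was the lowest group, below Y6M as well as below Y4Y, which was seen for no other member. Y18M replicate 2 lay inside the Y4Y range, and replicate 3 inside the range of Y6M.

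PPP1CC (ENSBGRG00000013221) had the most even level. It stood at 207.09, 166.13 and 226.86 FPKM in Y4Y, 137.05, 141.03 and 127.81 in CY, 95.21, 121.93 and 112.72 in Y6M and 110.06, 183.07 and 94.12 in Y18M. The CY libraries lay below Y4Y and above Y6M on this scale. The files give a single value for the gene, so its splice forms were not separated.

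**Figure D1:**
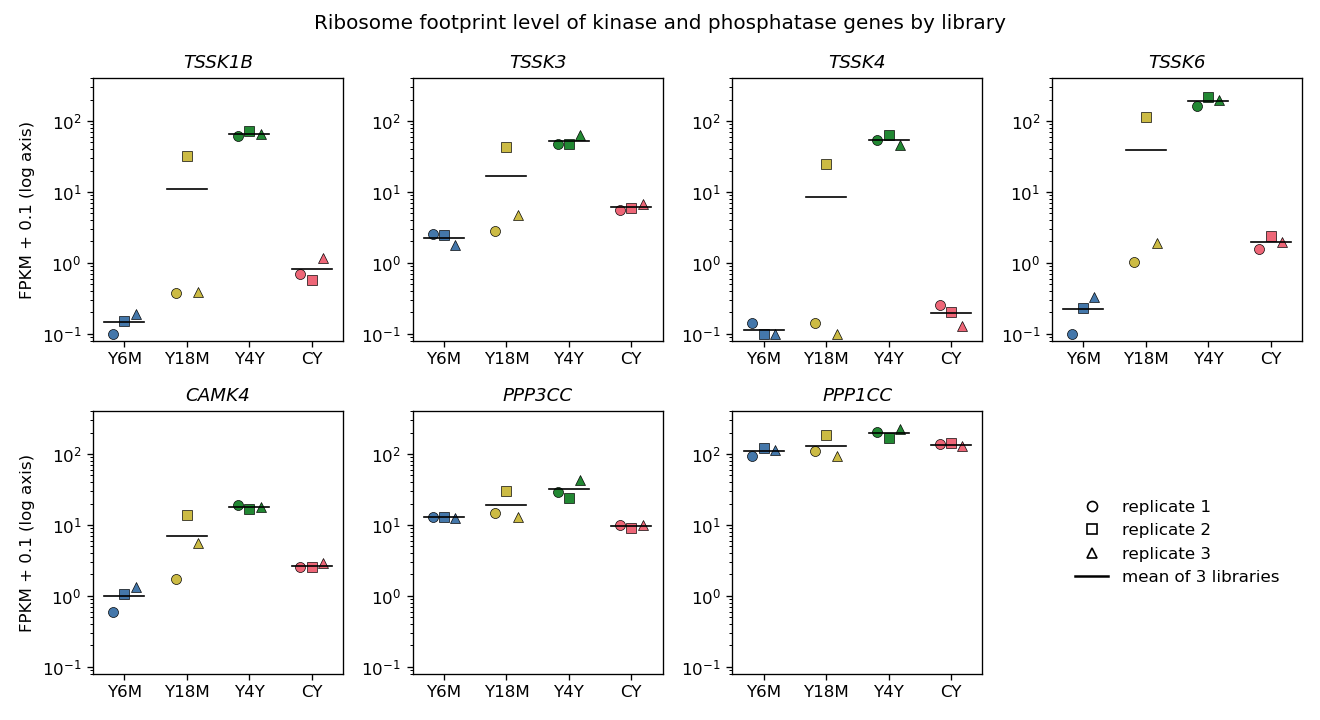
Translation level of the 7 genes in each of the 12 libraries, as FPKM + 0.1 on a log axis, with a symbol for each replicate and a line at the mean of 3 libraries. The 4 TSSK genes and CAMK4 are high in Y4Y and in Y18M replicate 2, while PPP3CC and PPP1CC are present at 8.89 FPKM or more everywhere.

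Per length, the order of the members differed between the groups. In Y4Y the mean levels were 200.03 FPKM ± 31.0 (SD, n = 3) for PPP1CC and 194 ± 26.7 for TSSK6, whose ranges overlapped. TSSK1B (66.6), TSSK4 (54.2) and TSSK3 (52.6) followed, TSSK1B overlapping both others, and then PPP3CC (31.7) and CAMK4 (17.8), which overlapped neither each other nor the TSSK genes. In CY the order by mean was PPP1CC (135), PPP3CC (9.53), TSSK3 (6.06), CAMK4 (2.56), TSSK6 (1.88), TSSK1B (0.71) and TSSK4 (0.0933), with no overlap between neighbours. The same order of means was found in Y6M, where TSSK6, TSSK1B and TSSK4 overlapped. TSSK6 thus shared the top place in adult yak and stood in the fifth place in cattle-yak.

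The comparison of CY with Y4Y asks how far translation of these genes in the hybrid testis departs from that in yak of the same age. Of the 7 members, 6 were called lower in CY and 0 higher, where 27% of all 16498 genes tested were called lower and 17.1% higher. The TSSK genes fell most. TSSK4 fell by 8.74 on the log2 scale (SE 0.40, edgeR adjusted p = 1.05e-06), a 427-fold lower level that rests on 13 counts in the 3 CY libraries. It passed the filter for low counts only through the Y4Y libraries and so could be called only lower. TSSK6 fell by 6.69 (SE 0.21, adjusted p = 3.91e-07), or 103-fold, and TSSK1B by 6.55 (SE 0.27, adjusted p = 8.16e-07), or 93.4-fold. TSSK3 fell by 3.11 (SE 0.17, adjusted p = 2.44e-06), which is 8.62-fold.

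Outside the TSSK family, CAMK4 fell by 2.79 (SE 0.16, edgeR adjusted p = 3.04e-06), or 6.90-fold, and PPP3CC by 1.73 (SE 0.21, adjusted p = 0.000159), or 3.31-fold. PPP1CC had an adjusted p of 0.00874 with a log2 fold change of -0.55 (SE 0.14), a 1.47-fold difference that is under the size asked of a call. All 7 members had every CY value of FPKM below every Y4Y value, as 36.8% of the genes tested did. The median log2 fold change of the 7 was -3.11, beside -0.0022 over all genes tested. In each of 16 alternative fits the same 6 members were called lower. The adjusted p of PPP1CC ranged from 0.00068 to 0.0527 over them.

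The share of each phosphatase family taken by PPP3CC or PPP1CC, the latter over all its splice forms, does not depend on library scaling. PPP3CC made up 30.5%, 25.7% and 36.8% of the summed FPKM of PPP3CA, PPP3CB and PPP3CC in the Y4Y libraries, and 7.87%, 7.71% and 7.40% in the CY libraries. The difference of the means was -23.3 percentage points. The exact two-sided permutation test gave p = 0.1, the smallest that 3 against 3 libraries allow. The Y6M shares were 20.3% to 23.0%, so the cattle-yak share was below that of juvenile yak too.

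PPP1CC made up 48.2%, 43.6% and 50.3% of the summed FPKM of the 3 protein phosphatase 1 catalytic genes in Y4Y and 19.6%, 19.1% and 17.8% in CY. The difference was -28.5 points, again with an exact permutation p = 0.1. In Y6M the share was 16.8% to 18.4%, which overlapped the CY range. The related genes moved the other way. PPP1CA and PPP1CB, the forms of most tissues, rose in CY over Y4Y by 1.17 (SE 0.11) and 1.45 (SE 0.11) on the log2 scale, both called. The log2 fold changes of PPP3CA and PPP3CB were 0.89 (SE 0.11) and 0.40 (SE 0.12), neither called. The summed FPKM of the calcineurin catalytic genes was 93.77 to 115.18 in Y4Y and 115.30 to 132.02 in CY, so it was not lower in the hybrid.

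Y18M minus Y6M was 1.07 points for PPP3CC (exact permutation p = 0.8) and 3.39 points for PPP1CC (exact permutation p = 0.9). Without Y18M replicate 2, whose shares were 30.0% and 32.1%, both differences turned, to -2.63 and -2.19 points. The share of PPP3R2 among the regulatory subunits could not be computed, since neither PPP3R2 nor PPP3R1 has a row under its symbol.

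**Figure D2:**
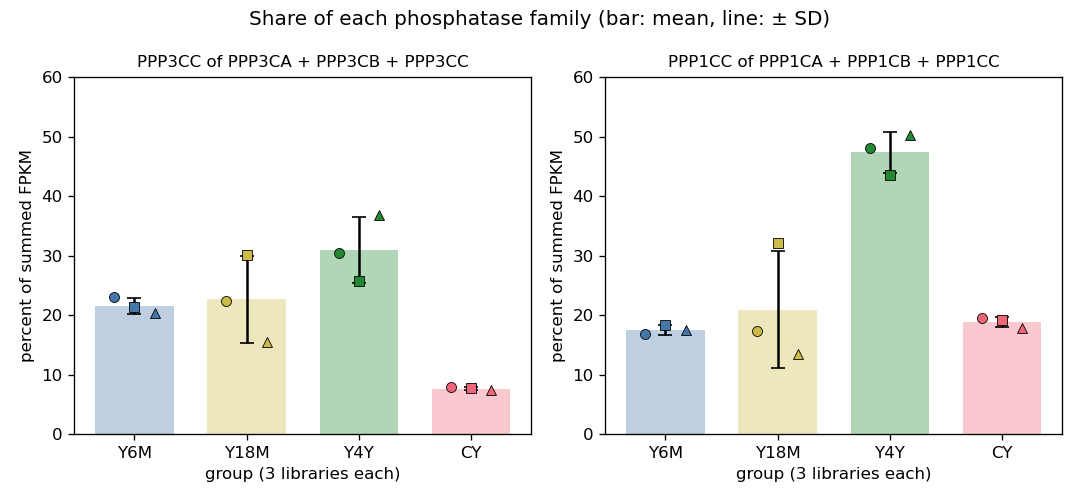
PPP3CC (left) and PPP1CC (right) as a percent of the summed FPKM of their 3 catalytic genes, with bars at the mean of 3 libraries, lines for ± SD and a symbol per replicate. The Y4Y libraries lie at 25.7% to 36.8% and 43.6% to 50.3%, and the CY libraries at 7.40% to 7.87% and 17.8% to 19.6%.

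CY over Y6M sets the adult hybrid beside the juvenile yak. TSSK6 and TSSK1B were higher in CY, while CAMK4, TSSK3, PPP3CC and PPP1CC passed no call. Of 6 members tested, 2 were called higher and 0 lower, where 18.1% of 15571 genes were called higher and 19.7% lower. TSSK6 rose by 3.40 on the log2 scale (SE 0.75, edgeR adjusted p = 0.00489) and TSSK1B by 3.32 (SE 0.81, adjusted p = 0.00815), both from 10 or fewer counts in the 3 juvenile libraries. Both passed the filter for low counts only through the CY libraries, so they could be called only higher. CAMK4 had a log2 fold change of 0.9996 (SE 0.35, adjusted p = 0.0388) and TSSK3 of 0.94 (SE 0.29, adjusted p = 0.0221), both just under the size asked. PPP3CC had -0.95 (SE 0.14, adjusted p = 0.000693) and PPP1CC -0.23 (SE 0.12, adjusted p = 0.127). Of the 6, 5 had an unadjusted edgeR p under 0.05, as did 9786 of the 15571 genes. TSSK4 was too low to be tested. Its 13 counts in CY against 1 in Y6M give a ratio of 9.39 relative to the library totals, with an exact 95% interval of 1.41 to 399 for counting error.

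The level of CY relative to Y6M depends on the scaling. With library size alone the median of all genes moved from -0.018 to 0.52 on the log2 scale, and with limma on log2(FPKM + 0.1) it was likewise 0.52. PPP1CC then had log2 fold changes of 0.30 and 0.31, so its direction is not settled, and in FPKM all CY values were above all Y6M values. In FPKM, 5 of the 7 members lay above Y6M without overlap and 1, PPP3CC, below, where 50.8% of all genes tested lay above and 19% below. TSSK4, which overlapped, was not among the genes tested. PPP3CC was below Y6M under all 16 alternatives (-1.04 to -0.39). With all 12 libraries in 1 fit, neither TSSK6 nor TSSK1B was called (edgeR adjusted p = 0.123 and 0.170), while 14.9% of all genes were called higher and 17.2% lower.

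The steps between yak ages ask when translation of these genes begins. Both rest on Y18M replicate 2. In Y18M over Y6M, 5 members were tested, and edgeR called 0 higher and 0 lower, where 0.0202% of 14874 genes were called higher and 0.0471% lower. Of the 5, 3 had an unadjusted edgeR p under 0.05, as did 3837 of the 14874 genes. Their log2 fold changes were 7.84 for TSSK6 (SE 2.19, adjusted p = 0.102), 2.56 for CAMK4 (SE 0.72, adjusted p = 0.103) and 2.49 for TSSK3 (SE 0.98, adjusted p = 0.174). TSSK6 passed the filter for low counts only through Y18M, so it could be called only higher. PPP3CC stood at 0.21 (SE 0.32) and PPP1CC at -0.12 (SE 0.26). DESeq2 called 1 member, CAMK4, higher, where it called 7.13% of all genes higher and 5.43% lower, and limma on log2(FPKM + 1) called 0. DESeq2 gave TSSK6 and TSSK3 no adjusted p here, so it could not call them. In FPKM, 4 members (TSSK1B, TSSK3, TSSK6 and CAMK4) lay above Y6M in all 3 Y18M libraries, as 29.7% of the genes tested did, and 3 overlapped. TSSK1B, which lay above, and TSSK4, which overlapped, were not among the genes tested.

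Without Y18M replicate 2 the difference from Y6M was smaller for every member tested that had been higher. TSSK6 then stood at 3.16 (SE 0.94, edgeR adjusted p = 0.128), CAMK4 at 1.64 (SE 0.55, adjusted p = 0.164) and TSSK3 at 0.44 (SE 0.42, adjusted p = 0.588). PPP3CC turned to -0.18 (SE 0.22). Again 0 members were called, where 0.226% of genes were called higher and 0.279% lower. Without Y18M replicate 1 instead, TSSK6 and CAMK4 were called higher, where 8.7% of all genes were called higher and 8.08% lower. There too TSSK6 passed the filter for low counts only through Y18M.

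In Y4Y over Y18M all 7 members were tested, and edgeR called 0 higher and 0 lower, where 0% of 16175 genes were called higher and 0.0371% lower. None had an unadjusted edgeR p under 0.05, where 5731 of the 16175 genes did. The log2 fold changes were 2.70 for TSSK4 (SE 2.01), 2.56 for TSSK1B (SE 1.70), 2.27 for TSSK6 (SE 1.64), 1.59 for TSSK3 (SE 0.96), 1.27 for CAMK4 (SE 0.64), 0.58 for PPP3CC (SE 0.36) and 0.46 for PPP1CC (SE 0.27). DESeq2 called CAMK4 alone (adjusted p = 0.0494), 1 of 7 members, where it called 12.9% of all genes higher and 14.2% lower, and limma on log2(FPKM + 1) called 0. TSSK3 had no adjusted p from DESeq2 here and could not be called by it. In FPKM 5 members, the TSSK genes and CAMK4, lay above every Y18M library, replicate 2 included, as 31% of the genes tested did.

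Without Y18M replicate 2, 5 members were called higher in Y4Y, where 26.1% of genes were called higher and 18.5% lower. TSSK4 rose by 10.50 (SE 0.59), TSSK1B by 7.65 (SE 0.27), TSSK6 by 6.93 (SE 0.31), TSSK3 by 3.62 (SE 0.28) and CAMK4 by 2.18 (SE 0.42, edgeR adjusted p = 0.00443). The fitted value of TSSK4 rests on 1 count in the remaining Y18M libraries, depends on the prior count and is no bound. TSSK4 and TSSK1B passed the filter for low counts only through Y4Y, so they could be called only higher. PPP3CC (0.98, SE 0.29) and PPP1CC (0.73, SE 0.23) were under the size asked.

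**Figure D3:**
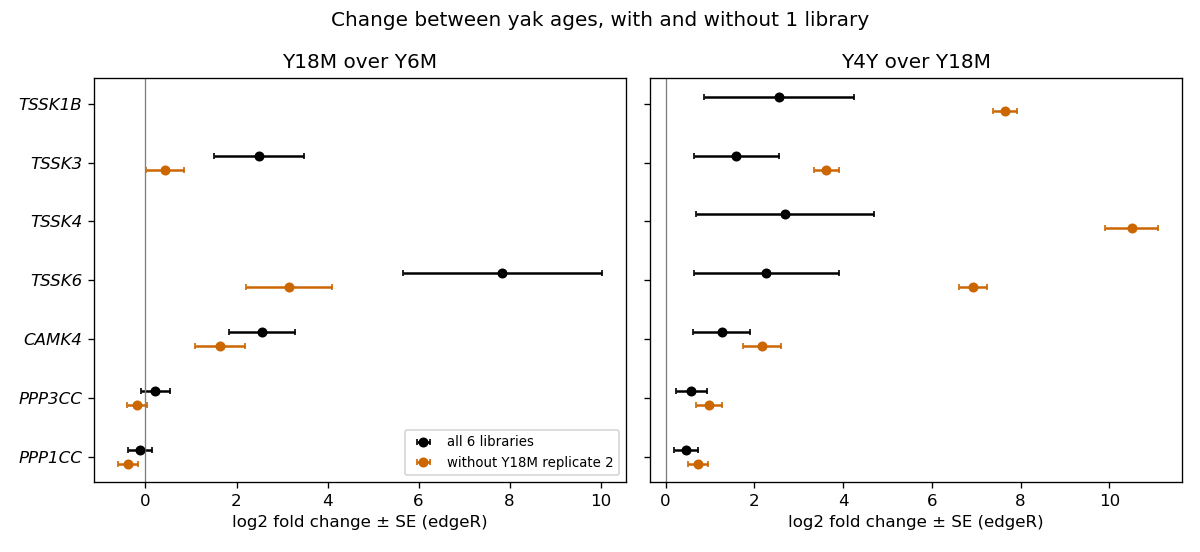
Log2 fold change ± SE from edgeR for each member between yak ages, with all 6 libraries (black) and without Y18M replicate 2 (orange). Without that library TSSK6 moves from 7.84 to 3.16 in Y18M over Y6M and from 2.27 to 6.93 in Y4Y over Y18M, while PPP3CC and PPP1CC stay within 1 of 0. TSSK1B and TSSK4 were too low to be tested in Y18M over Y6M.

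Each of the genes listed as working with the TSSK kinases was lower in cattle-yak. Of 4 partners and substrates tested, 4 were called lower in CY over Y4Y, where 27% of all genes tested were. Their median log2 fold change was -3.74. TSKS, a substrate of TSSK1B and TSSK2, stood at 108.15, 106.82 and 105.34 FPKM in Y4Y and 1.99, 2.72 and 2.29 in CY, and fell by 5.51 (SE 0.15, edgeR adjusted p = 3.91e-07). TSACC, a co-chaperone that activates TSSK kinases, stood at 186.39, 164.79 and 131.41 against 14.85, 9.23 and 11.38, and fell by 3.75 (SE 0.24). ODF2, an outer dense fibre protein of the sperm tail, fell by 2.57 (SE 0.25), the smallest difference of the 4. SPAG16 stood at 21.77, 17.46 and 26.02 FPKM in Y4Y and 2.74, 2.03 and 2.52 in CY. In CY over Y6M, 3 of the 4 were called higher, TSKS by 4.37 (SE 0.58), ODF2 by 2.34 (SE 0.27) and TSACC by 1.39 (SE 0.34). The fourth, SPAG16, stood at -0.49 and was not called. TSKS passed the filter for low counts only through CY, so it could be called only higher.

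Among the calcium and calcineurin genes around CAMK4 and PPP3CC, more were higher in cattle-yak than lower. Of 23 symbols 19 had a row and were tested, 6 were called higher and 1 lower in CY over Y4Y, and their median was 0.89. Over all genes tested, 17.1% were called higher and 27% lower. The 1 lower gene was CREM, a transcription factor of spermatids, which fell by 4.67 (SE 0.35, edgeR adjusted p = 1.02e-05), from 55.94, 55.12 and 37.07 FPKM to 2.22, 4.48 and 1.33. The highest was CAMK1D, another calmodulin-dependent kinase, which rose by 2.61 (SE 0.29). CAMKK1, a kinase that activates CAMK4, rose by 1.85 (SE 0.23), from 2.93 to 4.81 FPKM in Y4Y to 11.78 to 16.00 in CY. CAMKK2, the other such kinase, stood at 0.47 (SE 0.25, adjusted p = 0.124). PPP3R1 and SPATA33 have no row under their symbols. A row described as SPATA33, the protein that tethers calcineurin in sperm, was found by its description after its values had been seen, and fell by 5.16 (SE 0.28).

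The protein phosphatase 1 list holds the catalytic genes PPP1CA and PPP1CB beside genes that work with the catalytic subunit. Of its 14 genes, 11 were tested, 3 were called higher and 2 lower in CY over Y4Y, and the median was -0.05. The higher ones were PPP1CA and PPP1CB, given above, and PPP1R3B. These counts were not far from the shares of all genes tested, 17.1% higher and 27% lower. SPZ1, a transcription factor of the testis that binds the gamma catalytic subunit, held 481, 552 and 799 counts in Y4Y and 0, 1 and 0 in CY. That is 4572 times the CY level relative to the library totals, with an exact 95% interval of 820 to 180670 for counting error. SPZ1 passed the filter for low counts only through Y4Y, so it could be called only lower. PPP1R3B, a glycogen-targeting subunit, was the highest at 1.70 (SE 0.24). PPP1R7 and PPP1R11, regulators found with the sperm enzyme, stood at -0.49 (SE 0.12) and -0.35 (SE 0.12), under the size asked. PPP1R2, PPP1R32 and PPP1R42 have no row under their symbols. A row described as protein phosphatase inhibitor 2, also found by description after its values had been seen, fell by 3.14 (SE 0.14), from 854.66 to 1048.98 FPKM in Y4Y to 103.62 to 118.84 in CY.

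Of 16 other kinases known from sperm and spermatids, 14 were tested, 1 was called higher and 7 lower in CY over Y4Y, with a median of -1.03. The shares of all genes tested were 17.1% higher and 27% lower. MAK, a male germ cell-associated kinase, fell by 5.67 (SE 0.28) and stood at 34.08, 32.11 and 35.59 FPKM in Y4Y and 0.91, 0.50 and 0.51 in CY. CSNK2A2, a catalytic subunit of casein kinase 2, rose by 1.02 (SE 0.12). GSK3B, a kinase that phosphorylates inhibitor 2 of protein phosphatase 1, stood at -0.10 (SE 0.12), and a row described as GSK3A, likewise chosen after its values were seen, at -0.18 (SE 0.11).

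**Figure D4:**
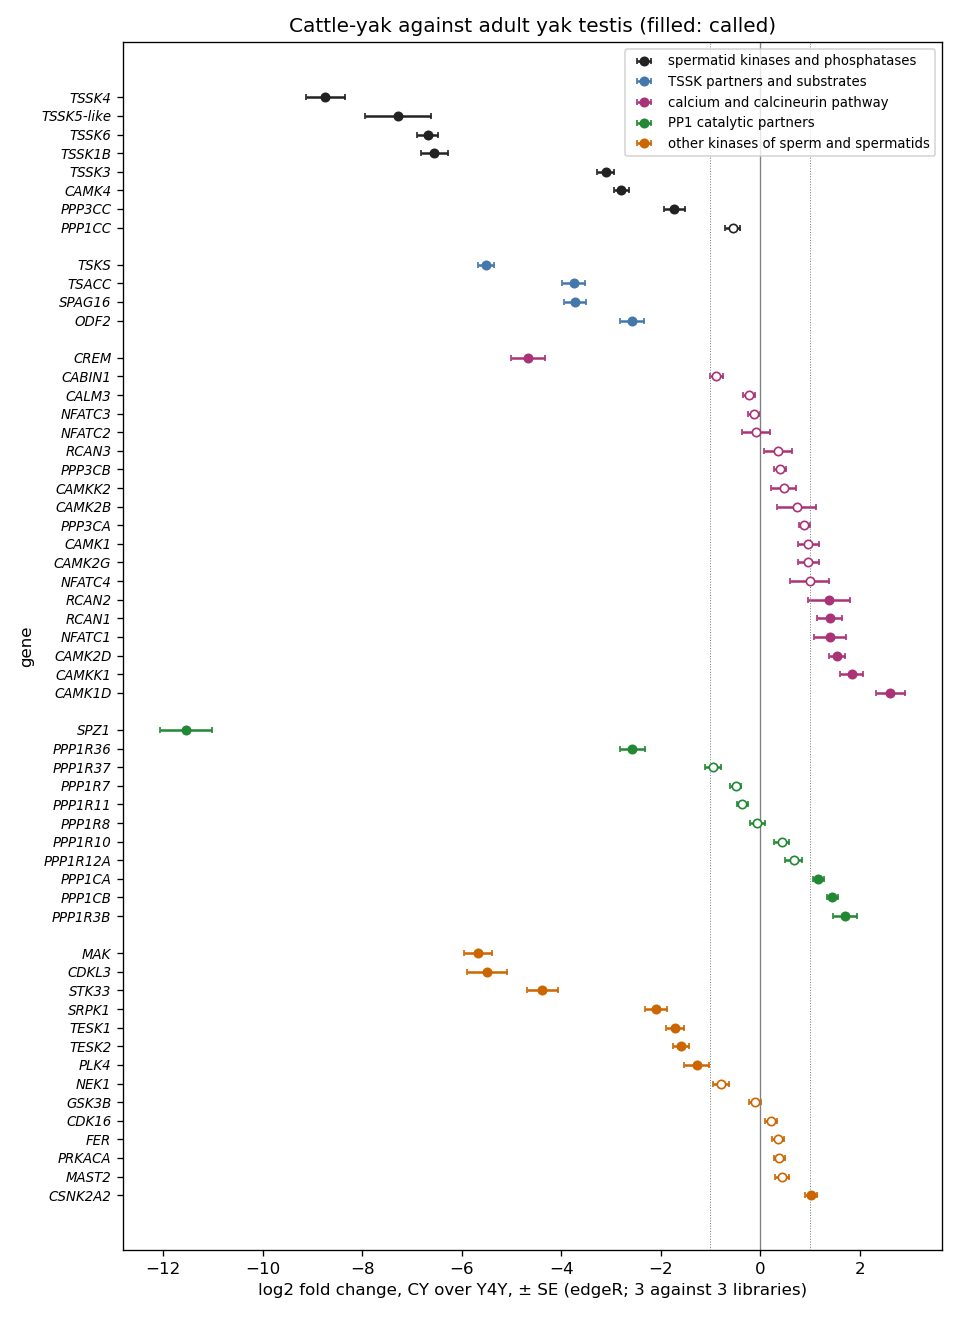
Log2 fold change of CY over Y4Y with ± SE from edgeR for the 7 members, the TSSK5-like row and the tested genes of 4 lists, with filled points for called genes and dotted lines at -1 and 1. The TSSK genes and their partners lie to the left of -2, while the calcium and calcineurin genes centre on 0.89. The fitted values of SPZ1 (1 count in CY) and TSSK5-like (3 counts) depend on the prior count and are no bounds.

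In the yak steps, with all libraries, 0 of the genes on the 4 lists were called by edgeR in either direction. DESeq2 called 2 higher and 2 lower in Y18M over Y6M, and 7 higher and 12 lower in Y4Y over Y18M, beside its shares of all genes given above. Without Y18M replicate 2, edgeR called 16 higher and 14 lower in Y4Y over Y18M, where 26.1% of all genes were called higher and 18.5% lower. There SPZ1, MAK, CDKL3, TSKS and STK33 passed the filter for low counts only through Y4Y, so they could be called only higher. In CY over Y6M, 10 genes of the lists were called higher and 4 lower, where 18.1% of all genes were called higher and 19.7% lower. The higher ones were 3 of 4 TSSK partners, 2 of 19 calcium and calcineurin genes, 1 of 10 genes of the phosphatase 1 list and 4 of 14 other kinases. Of the list genes, TSKS, MAK and CDKL3 passed the filter for low counts only through CY, so they could be called only higher. The lower ones were all calcium and calcineurin genes (CAMKK2, NFATC4, RCAN2 and CAMK1).

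Markers of spermatids were high and low in the same libraries as the TSSK genes, but several members were less low than they were. In CY the round spermatid markers with a row had means of 0.115% to 0.434% of the Y4Y mean. CAMK4 (14.4%), TSSK3 (11.5%), TSSK1B (1.07%) and TSSK6 (0.97%) stood above that range, and TSSK4 (0.17%) inside it. In Y6M the mean of TSSK3 was 4.12%, against 0% to 0.21% for those markers. There TSSK1B (0.070%), TSSK6 (0.062%) and TSSK4 (0.025%) lay inside the marker range. Of 7 round spermatid markers 4 had a row, and their summed level was 1046 to 1715 FPKM in Y4Y, 2 to 6.18 in CY and 0.25 to 0.87 in Y6M. In Y18M the sum was 1.09, 606 and 4.16 for replicates 1, 2 and 3. Of 7 elongating spermatid markers 3 had a row, and their sum was 8152 to 11202 in Y4Y, 1.13 to 26.4 in CY, 0.96 to 1.2 in Y6M and 1.84, 6663 and 13.1 in Y18M. The only marker of these lists at 0 in every library of a group was SUN5, in Y6M. All 7 spermatocyte markers had a row, with sums of 744 to 842 in Y4Y, 314 to 440 in CY and 126 to 186 in Y6M. HORMAD1 alone made up 123.09, 137.57 and 182.89 FPKM of the Y6M sums. Every other spermatocyte marker had a Y6M mean of 4.19% or less of its Y4Y mean. In CY the means of the single markers ran from 5.34% (PIWIL1) to 161% (SYCP3) of the Y4Y mean. Of them, 3 of 7 were called lower in CY over Y4Y (median -1.01), with SYCP3 the highest at 0.70 and not called. All 4 round and all 3 elongating spermatid markers were called lower, where 27% of all genes tested were called lower and 17.1% higher. Of these markers, ACRV1, SUN5, CATSPER3, TNP1 and ODF1 passed the filter for low counts only through Y4Y, so they could be called only lower. Spermatogonial markers (5 of 7 with a row) summed to 591 to 874 FPKM in Y4Y and 1240 to 1382 in CY, with 2 of 5 called higher and 0 lower (median 0.82). Summed Sertoli markers (5 of 7 with a row) were 608 to 838 FPKM in Y4Y and 1124 to 1381 in CY, with 3 of 5 called higher. All 5 peritubular myoid markers and both Leydig cell markers with a row were also called higher in CY. Endothelial sums (10.87 to 14.21 in Y4Y, 9.29 to 13.36 in CY) and macrophage sums (47.2 to 67.4 and 41.2 to 52.1) overlapped, and 1 of 4 markers was called lower in each list, VWF (-2.39) and CD68 (-1.17). The 1 T cell marker with a row was not called. The part of these shifts in the members' differences was not tested.

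**Figure D5:**
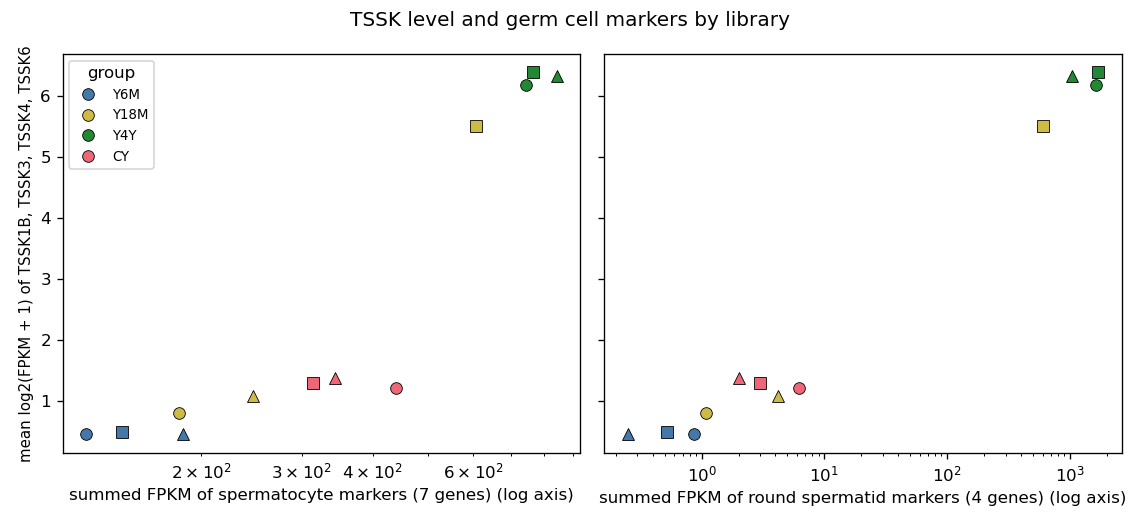
Mean log2(FPKM + 1) of the 4 TSSK genes in each library against the summed FPKM of 7 spermatocyte markers (left) and of 4 round spermatid markers (right), on log axes, coloured by group with a symbol per replicate as in the other plots. Y4Y and Y18M replicate 2 lie at 5.51 or more, and the other 8 libraries at 1.39 or less on the TSSK axis. The Y6M sums of the spermatocyte markers are almost all HORMAD1.

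Many genes shared the pattern of the TSSK genes over the 12 libraries, which cluster into a high and a low set, so these correlations describe that split. The 5 genes most like the TSSK mean were ARMC12, EFCAB6, MS4A13, BTBD16 and FBP2, with Pearson correlations of log2(FPKM + 1) of 0.998 to 0.999, and 1167 of 10695 genes compared reached 0.95. For CAMK4 they were TRIM33, RUFY3, OTUD4, PPP4R1 and CNOT10, at 0.989 to 0.992, with 451 genes at 0.95 or more. For PPP1CC they were ZNF800, FAR1, CEP55, NUDT18 and DCTN6, at 0.963 to 0.978, and 16 genes reached 0.95. Among the members, TSSK1B and TSSK4 correlated most closely (0.995) and PPP3CC and PPP1CC least (0.783).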

How the data were processed

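Testes of 12 animals were profiled by Ribo-seq. According to the study's methods, which describe the Y4Y and CY libraries, the authors removed rRNA and other small RNA reads, kept reads of footprint length, aligned them to the yak genome BosGru 3.0 and quantified coding regions with RSEM. The labels name Bowtie2 and RSEM. The deposited tables hold whole-number expected counts from RSEM and, separately, FPKM computed by the authors. They also hold columns of the authors' own comparisons (fold changes and p-values), which were not used.

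Each comparison used the 6 libraries of its 2 groups, taken from the labels. Genes with low expected counts were left out by filterByExpr, libraries were scaled by TMM, and edgeR 4.0.16 gave the quasi-likelihood test, with Benjamini-Hochberg adjustment over all genes tested (R 4.3.3). The scripts were tested on simulated data. FPKM was used for levels, shares (exact two-sided permutation test over libraries) and correlations (genes with a mean of at least 1). Alternatives were DESeq2 1.42.0, limma 3.58.1 on log2(FPKM + 1) and log2(FPKM + 0.1), library size alone, RLE and upper quartile scaling, no filter, all 12 libraries in 1 fit, the replicate number as a block, each library left out, and counts thinned to the lowest library total, which was chosen after seeing the data. The labels describe replicates as separate animals, and no 2 libraries of a group agreed within sampling noise (chi-square per degree of freedom of at least 26.4). Footprints carry no molecular identifiers in the sources used here, so intervals and floors cover counting error only.

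The members and gene lists were chosen with earlier results of these data known. Named list genes were TSKS, TSACC, the family relatives, the CaMK kinases and known regulators, plus the lowest and highest gene of each list in CY over Y4Y. ODF2, SPAG16 and others named as the few called genes of a list were chosen after their values were seen.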

Additional observations from a re-analysis of the deposited data

How the results depend on the processing

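In CY over Y4Y the 6 calls kept their direction and call in all 16 alternatives, and the pathway genes called stayed within 23 to 26 when a library was left out. The other comparisons depended on the setting. In Y18M over Y6M, members called higher were 0, but 1 with DESeq2, where 7.13% of all genes were and TSSK6 and TSSK3 had no adjusted p. They were 4 with all 12 libraries in 1 fit, where 10.8% of all genes were called higher, and 0 to 2 with a library left out. Among the 4 were TSSK1B and TSSK4, which passed that fit's filter through libraries of other groups and could be called only higher. Replicate 2 held 762 of 777 Y18M counts of TSSK1B and 426 of 427 of TSSK4. The fit of all 12 libraries was not run without it. List genes called there were 0, but 4 with DESeq2, 10 with all 12 libraries, 1 with limma on log2(FPKM + 0.1), and 0 to 9 with a library left out. In Y4Y over Y18M, members called higher were 0, but 1 with DESeq2 (12.9% of all genes; TSSK3 again without an adjusted p) and 0 to 5 with a library left out; list genes called were 0, but 19 with DESeq2, 15 with all 12 libraries and 0 to 30 with a library left out. In CY over Y6M, members called higher were 2, but 4 with library size alone (31.3% of all genes called higher), 0 with all 12 libraries (14.9%), 4 with limma on log2(FPKM + 0.1) (32%) and 2 to 3 with a library left out, and thinning called 1 lower, PPP3CC. List genes called there were 14, but 23 with library size alone, 9 with all 12 libraries and 23 with limma on log2(FPKM + 0.1).

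Reversals in Y18M over Y6M were PPP3CC without Y18M replicate 2 (-0.18, the range with a library left out being -0.18 to 0.45), and PPP1CC with library size alone (0.25), limma on log2(FPKM + 1) and log2(FPKM + 0.1) (both 0.18) and without Y18M replicate 3 (0.076, the range with a library left out being -0.39 to 0.076). In CY over Y6M, PPP1CC turned with library size alone (0.30) and limma (0.30 and 0.31). The shares in Y18M minus Y6M ranged from -2.63 to 4.61 points for PPP3CC and from -2.19 to 7.14 for PPP1CC when a library was left out, and in CY minus Y4Y from -26.0 to -20.4 and from -30.4 to -27.1. For these changes the cause was not tested.

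Replicate numbers did not pair the samples (correlation of deviations -0.094 to 0.050). With the replicate number as a block, members called remained at 6 lower in CY over Y4Y, 2 higher in CY over Y6M and 0 in both yak steps. The PPP3R2 share was not run. Depth limits TSSK4, TSSK1B and TSSK6 in Y6M, with 10 or fewer counts each.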
